A study of Homo sapiens with 8 samples.

Results

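Rab GTPases are the largest branch of the Ras superfamily of small GTPases, and they were taken here as every protein-coding gene of GENCODE release 44 whose symbol is RAB followed by a number and at most 1 letter. This gave 63 genes among the 60675 identifiers counted, and 50 of the 63 had enough reads to be tested. The choice also rested on a measured value, because RAB15 was singled out for the size of the difference between its drug responses in the 2 lines. All values of RAB15 are therefore given as a description with no test, and every count of called Rab genes is over the 49 other tested members. The libraries came from Panc10.05, a human pancreatic adenocarcinoma cell line, sequenced as stranded polyA RNA with 2 libraries in each of 4 groups. Parental cells were left untreated or were exposed to 2 µM indisulam for 18 h. Indisulam is a sulfonamide and molecular glue that brings RBM39, a splicing factor, to a ubiquitin ligase with DCAF15 as its receptor, after which the RBM39 protein is broken down. Resistant cells had been grown in rising amounts of indisulam and were sampled either under continuous 2 µM indisulam or after a drug holiday of 1 week, which is the untreated resistant group. The resistant cells are a population that adapted in culture rather than a stated clone, the growth and treatment notes name A549 where the titles name Panc10.05 (the titles were followed), and the study describes its libraries as technical replicates, so that p-values measure the spread between libraries alone.

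Rab proteins switch between a GTP-bound form, which sits on a membrane and recruits effectors, and a GDP-bound form, which is pulled off the membrane by GDP dissociation inhibitors. Each Rab marks its own set of membranes, so that together they steer budding, transport, tethering and fusion of vesicles. Guanine nucleotide exchange factors (GEFs) switch Rabs on, GTPase-activating proteins (GAPs) switch them off, and a geranylgeranyl transferase with its escort proteins adds the lipid anchor. In pancreatic epithelium the family is best known for regulated secretion (RAB3, RAB26 and RAB27 genes) and for apical recycling (RAB11 genes and RAB25).

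RefSeq sequence upstream of the start site was matched for 50 of the 63 genes and for 41 of the 50 tested. The 250 bases before the start (GRCh38.p14) are shown for the genes with the largest called rise and the 2 largest called falls between the untreated lines among Rabs with a mean of at least 1 CPM. They are RAB4A at chr1:229270861-229271110 on the plus strand, RAB3B at chr1:51990701-51990950 on the minus strand, and RAB14 at chr9:121201870-121202119 on the minus strand. Capitals mark matches on either strand to the GC box GGGCGG, the E-box CACGTG and the TATA box TATAAA, which share no letters in these windows.
RAB4A: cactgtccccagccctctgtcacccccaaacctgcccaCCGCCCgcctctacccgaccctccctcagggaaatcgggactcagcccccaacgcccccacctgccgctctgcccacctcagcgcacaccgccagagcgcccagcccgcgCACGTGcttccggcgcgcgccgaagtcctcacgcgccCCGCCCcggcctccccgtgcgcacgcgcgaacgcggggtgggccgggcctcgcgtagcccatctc
RAB3B: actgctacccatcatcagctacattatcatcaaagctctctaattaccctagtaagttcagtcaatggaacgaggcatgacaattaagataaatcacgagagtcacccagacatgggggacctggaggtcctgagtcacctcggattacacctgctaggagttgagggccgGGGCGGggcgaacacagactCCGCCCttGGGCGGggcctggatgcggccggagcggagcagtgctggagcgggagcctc
RAB14: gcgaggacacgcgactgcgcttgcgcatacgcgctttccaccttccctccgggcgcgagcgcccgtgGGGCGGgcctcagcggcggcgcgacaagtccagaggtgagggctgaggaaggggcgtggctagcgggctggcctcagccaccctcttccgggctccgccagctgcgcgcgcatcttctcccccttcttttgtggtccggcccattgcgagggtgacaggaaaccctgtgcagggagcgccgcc
RAB4A held 2 GC boxes and 1 E-box in a window of 75.2% GC, RAB3B 3 GC boxes in 56.8% GC, and RAB14 1 GC box in 70.8% GC. A GC box was present in 35 of the 41 tested Rab genes (85.4%), against 67.6% of 10163 tested protein-coding genes. An E-box was present in 12.2% against 8.82% and a TATA box in 2.44% against 5.34%, and the median GC content was 65.6% against 64.8%. For RAB14 GENCODE extends the gene to base 121223014, so that transcripts can also start upstream of the window shown.

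Each library held between 65266253 and 108002436 reads assigned to genes, and 16661 genes passed the filter on low counts. All 8 pancreatic ductal epithelium markers were present, with a summed level of 6614 to 6881 CPM (the reads of a gene relative to all reads in genes of its library, after TMM scaling) in parental and 11087 to 12643 CPM in resistant libraries. Marker sums of acinar cells, leukocytes, endothelium and alveolar epithelium reached at most 0.371 CPM, and those of fibroblasts 1.35 to 4.03 CPM, with DCN and LUM at 0. The part of the higher ductal marker level in the differences between the lines was not tested. RBM39 transcript read 332 and 337 CPM in untreated and 716 and 731 CPM in treated parental libraries, and 299 and 311 against 577 and 591 CPM in the resistant ones. The RBM39 transcript was thus higher with indisulam in both lines (log2 fold changes of 1.11 ± 0.029 and 0.94 ± 0.029, SE, edgeR adjusted p = 4.9e-18 and 7.3e-18).

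Per kilobase of canonical transcript, RAB1B and RAB7A stood well above all other Rab genes. RAB1B, which serves transport from the endoplasmic reticulum (ER) to the Golgi, averaged 191 CPM per kb over the 8 libraries, and RAB7A, which directs late endosomes to lysosomes, averaged 161. RAB25, an epithelial Rab of recycling endosomes, followed at 61.3 CPM per kb. Of the tested genes, 32 had a mean of 10 CPM or more, 10 lay between 1 and 10 CPM and 8 lay under 1 CPM. The 13 untested genes never exceeded 11 reads in any library. They include the neuronal RAB3C, RAB6B and RAB39B, and no read at all was assigned to RAB39A and RAB42. The order by level barely depended on the length used (Spearman's rho of 0.992 between canonical transcript and union of exons across the 63 genes, given as a description), although RAB7A read 48.8 in place of 161 CPM per kb when the union of all its exons was used.

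**Figure D1:**
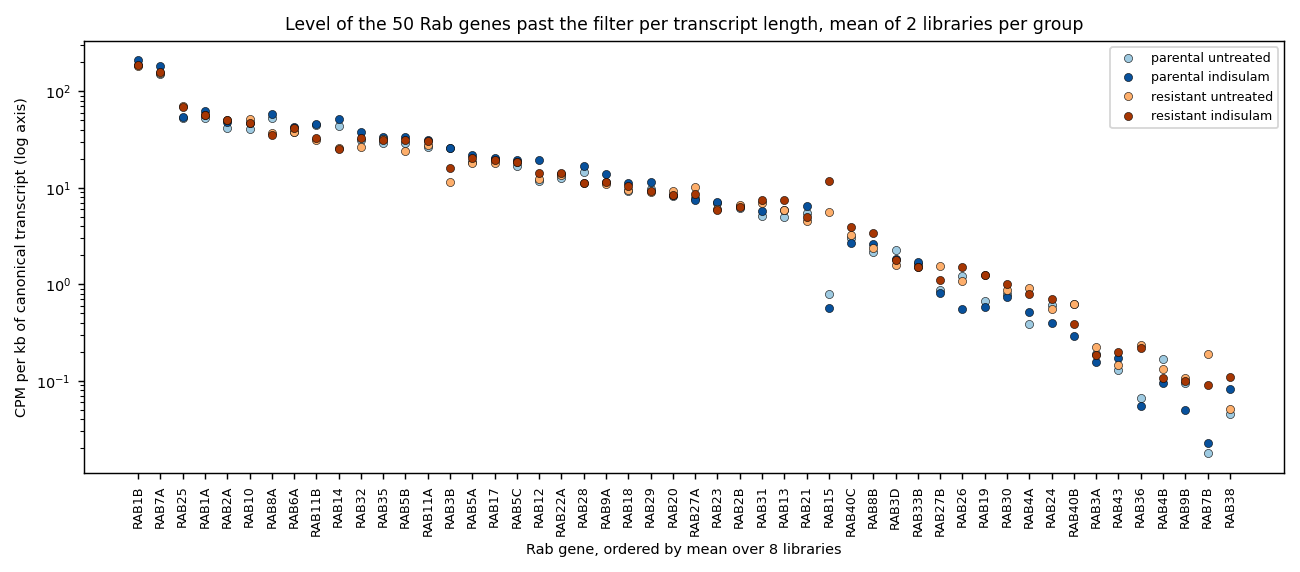
Mean level of each of the 50 tested Rab genes per kb of canonical transcript (CPM per kb, log axis), 1 point for each of the 4 groups, each the mean of 2 libraries. Most genes keep their 4 points close together, while RAB15 spreads from 0.573 CPM per kb in treated parental cells to 11.7 in treated resistant cells.

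RAB15, a Rab of early and recycling endosomes known for slowing the traffic of the transferrin receptor, had the widest spread between groups among Rabs with at least 1 CPM. It read 2.84 and 2.59 CPM in untreated parental libraries, 2.07 and 1.87 CPM in treated parental libraries, 19.97 and 18.7 CPM in untreated resistant libraries, and 40.6 and 40.0 CPM in treated resistant libraries. No 2 groups overlapped, the treated parental cells were lowest and the treated resistant cells highest. Its log2 difference between resistant and parental cells was 2.83 ± 0.063 (SE) without drug and 4.35 ± 0.065 with drug. Its log2 response to indisulam was -0.47 ± 0.097 in parental and 1.06 ± 0.045 in resistant cells, and each replicate pair taken alone gave values close to these (-0.46 and -0.47 in parental, 1.02 and 1.09 in resistant cells). The resulting difference of responses, 1.52 ± 0.11, placed RAB15 at rank 712 from the top of all 16661 genes tested and at rank 59 of the 12064 with a mean of at least 1 CPM. These values rest on 145 to 3849 reads a library. RAB15 lies at chr14:64945814-64973226 (GRCh38, minus strand), its exons overlap no other annotated gene, and none of its 100-base windows recurs in another gene's transcripts.

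Of the 3 tested neighbours on each side of RAB15, SPTB, on the same strand, had the largest differences between the lines. SPTB, which encodes the erythroid spectrin beta chain, differed by 1.28 log2 units between resistant and parental cells without drug and by 2.04 with drug, the resistant cells being higher (edgeR adjusted p = 1.1e-07 and 1.6e-11), and rose by 0.70 log2 units with indisulam in resistant cells (adjusted p = 6.5e-05). Its response in parental cells was -0.06 (adjusted p = 0.80). The differences between the lines at PLEKHG3, CHURC1, FNTB, MAX and FUT8 ranged from -0.27 to 0.54 log2 units. REP15, the effector named after RAB15, was near the lower limit of detection at 18 to 38 reads a library and passed the test in none of the comparisons.

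**Figure D2:**
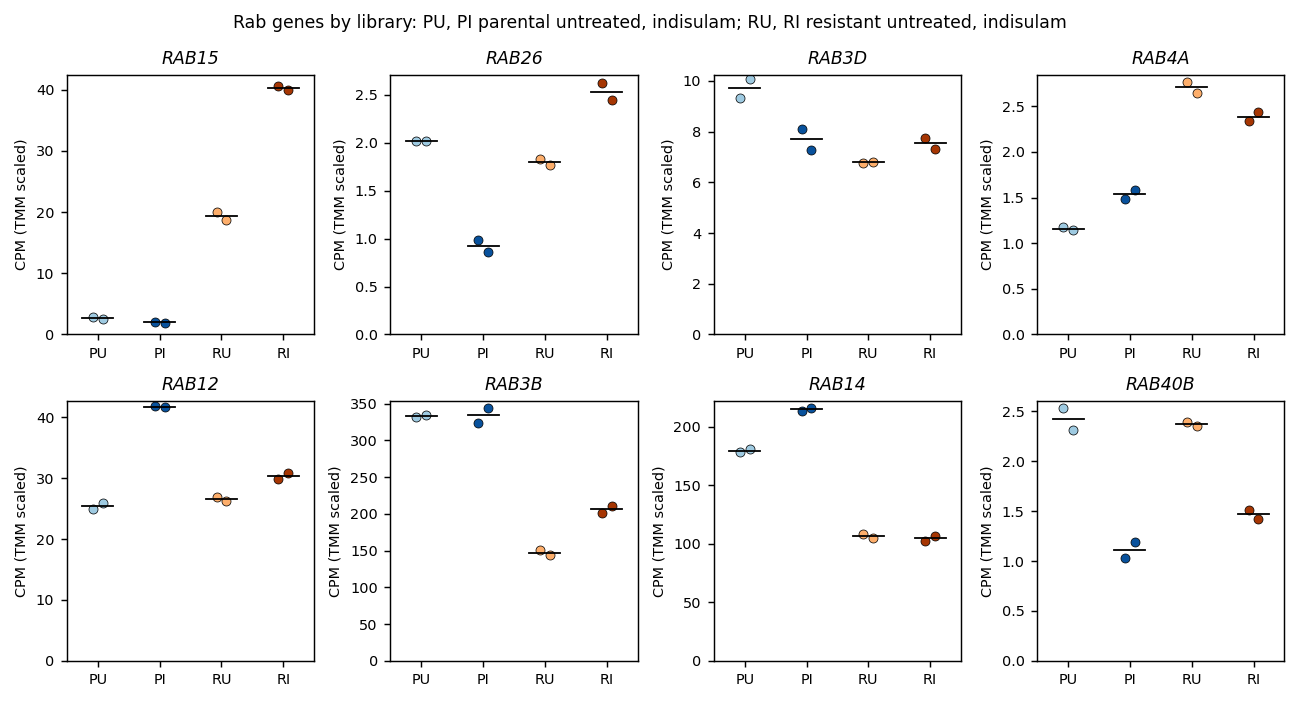
CPM (TMM scaled) of 8 Rab genes in each of the 8 libraries, with the mean of each group as a line; the columns are parental untreated (PU), parental indisulam (PI), resistant untreated (RU) and resistant indisulam (RI). RAB15 sits at 40.0 and 40.6 CPM in treated resistant cells and at or below 2.84 CPM in all 4 parental libraries, while RAB26 is lowest and RAB12 highest in treated parental cells.

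The first comparison asked what 18 h of indisulam did to the family in parental cells. Most Rab genes moved upwards by a small amount: 26 of the 49 rose and 6 fell under edgeR's quasi-likelihood test, or 32 called against a background of 58.2% of all genes tested (31.6% higher and 26.6% lower). The summed level of all Rab genes was 3051 and 3052 CPM in untreated and 3440 and 3457 CPM in treated libraries. In bulk RNA, a change in the number of cells that carry a transcript and a change in the amount per cell cannot be told apart. The median log2 fold change was 0.17 over the 49 Rab genes and 0.01 over all genes tested. Among Rabs with a mean of 10 CPM or more, 23 of 31 rose and 8 did not pass the test, while over all 8811 genes of that level 50.5% rose and 24.6% fell.

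RAB12, which sends the transferrin receptor from recycling endosomes to lysosomes, rose most. It read 24.95 and 25.9 CPM in untreated and 41.9 and 41.6 CPM in treated parental libraries, which is 0.72 ± 0.037 on the log2 scale (adjusted p = 2.6e-13). The Rab genes named as the largest rises and falls had to be called and free of overlap between the libraries compared. For them, absence of overlap was fixed in advance by this naming rule. Of all 16661 genes tested, 13132 showed no overlap in this comparison. RAB32, a Rab of lysosome-related organelles and mitochondria, rose from 33.0 and 33.1 to 39.8 and 41.7 CPM (0.30 ± 0.041, adjusted p = 1.4e-06). RAB4A, which drives fast recycling from early endosomes, read 1.18 and 1.14 CPM untreated and 1.48 and 1.59 CPM treated (0.40 ± 0.13, adjusted p = 0.011). That call rested on replicate 2 of both parental groups. It was lost without parental untreated replicate 2 (0.38) or parental indisulam replicate 2 (0.33), and DESeq2 gave adjusted p = 0.069.

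The falls were fewer and, in RAB26 and RAB40B, larger. RAB26, a Rab of secretory granules, read 2.02 and 2.02 CPM untreated and 0.987 and 0.865 CPM treated (-1.13 ± 0.13, adjusted p = 1.7e-07). RAB40B, whose SOCS box couples it to a cullin 5 ubiquitin ligase, went from 2.53 and 2.31 to 1.03 and 1.19 CPM (-1.13 ± 0.13, adjusted p = 8.2e-08). Both genes thus ended below 1.2 CPM, with no overlap between treated and untreated libraries, as the naming rule required. RAB3D, the Rab of zymogen granules, fell from 9.35 and 10.09 to 8.11 and 7.28 CPM (-0.34 ± 0.065, adjusted p = 1.0e-04). The remaining falls were those of RAB40C (-0.18), RAB24 (-0.62) and RAB9B (-0.90), the last of them on 13 to 43 reads a library.

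By membrane, called rises were counted in each group, beside the 31.6% of all genes and 50.5% of genes of at least 10 CPM that rose, and the groups were not tested against each other. Early endosome Rabs rose in 6 of 7 genes, all by 0.15 to 0.25 log2 units, with RAB20 the exception at 0.05. Late endosome and lysosome Rabs rose in 5 of 10, led by RAB12, RAB32 and RAB7A (0.27). In the ER and Golgi group 6 of 10 rose, RAB1B by 0.17 among them, and 4 of 8 in the recycling group, where RAB25 (0.01) and RAB11B (0.05) did not pass. The secretory group was mixed, with 4 of 10 higher and 2 lower, and RAB3B, RAB27A and RAB27B did not pass the test at 0.01, -0.09 and -0.10. With library totals alone edgeR called both RAB27A (-0.15, adjusted p = 0.0037) and RAB27B (-0.17, adjusted p = 0.043) lower. RAB27A was also called with protein-coding genes alone (-0.14, edgeR adjusted p = 0.0052).

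In resistant cells the same drug was compared with a 1-week holiday, and fewer Rab genes differed. Of the 49, 15 rose and 6 fell with drug, 21 called against a background of 50.7% (24.9% higher and 25.8% lower). The median log2 fold change was 0.03 over the Rab genes and 0.01 over all genes. With library totals in place of TMM scaling the split was 23 higher and 5 lower. Over all genes it was then 5095 higher and 3438 lower, with a median of 0.06. Relative to the median of all genes, the median of the Rab genes was 0.02 under both scalings. RAB8B, which carries cargo to the plasma membrane, rose most of the tested members with at least 1 CPM. It read 11.3 and 11.8 CPM off drug and 15.3 and 17.1 CPM on drug (0.50 ± 0.058, adjusted p = 1.4e-07). RAB3B, a Rab of regulated exocytosis and among the 3 most counted Rabs, read 151 and 144 CPM off drug and 201 and 211 CPM on drug (0.49 ± 0.034, adjusted p = 1.1e-10). Neither gene's libraries overlapped between the groups, as the naming rule required. Of all 16661 genes tested, 12163 showed no overlap here. RAB26 rose by 0.48 ± 0.12 (adjusted p = 0.0017), from 1.84 and 1.77 to 2.63 and 2.44 CPM, and RAB5B, an early endosome Rab, rose by 0.36 ± 0.030.

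The falls on drug in resistant cells included both RAB27 genes. RAB27B, which docks secretory granules and exosomes, read 10.8 and 10.96 CPM off drug and 7.70 and 7.90 CPM on drug (-0.48 ± 0.063, adjusted p = 8.3e-07). Its close relative RAB27A moved the same way by less, from 35.4 and 34.4 to 29.0 and 31.2 CPM (-0.21 ± 0.041, adjusted p = 1.5e-04). Both genes were lower on drug in every library, and the naming rule required libraries without overlap. RAB40B fell again, from 2.39 and 2.36 to 1.51 and 1.42 CPM (-0.70 ± 0.13, adjusted p = 7.1e-05). RAB10 (-0.14), RAB20 (-0.17) and RAB7B (-1.07, on 17 to 46 reads a library) made up the rest. In the secretory group 7 of 10 were called, 4 higher and 3 lower. Of all genes tested 50.7% were called, and of those with a mean of 10 CPM or more 64.6%.

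**Figure D3:**
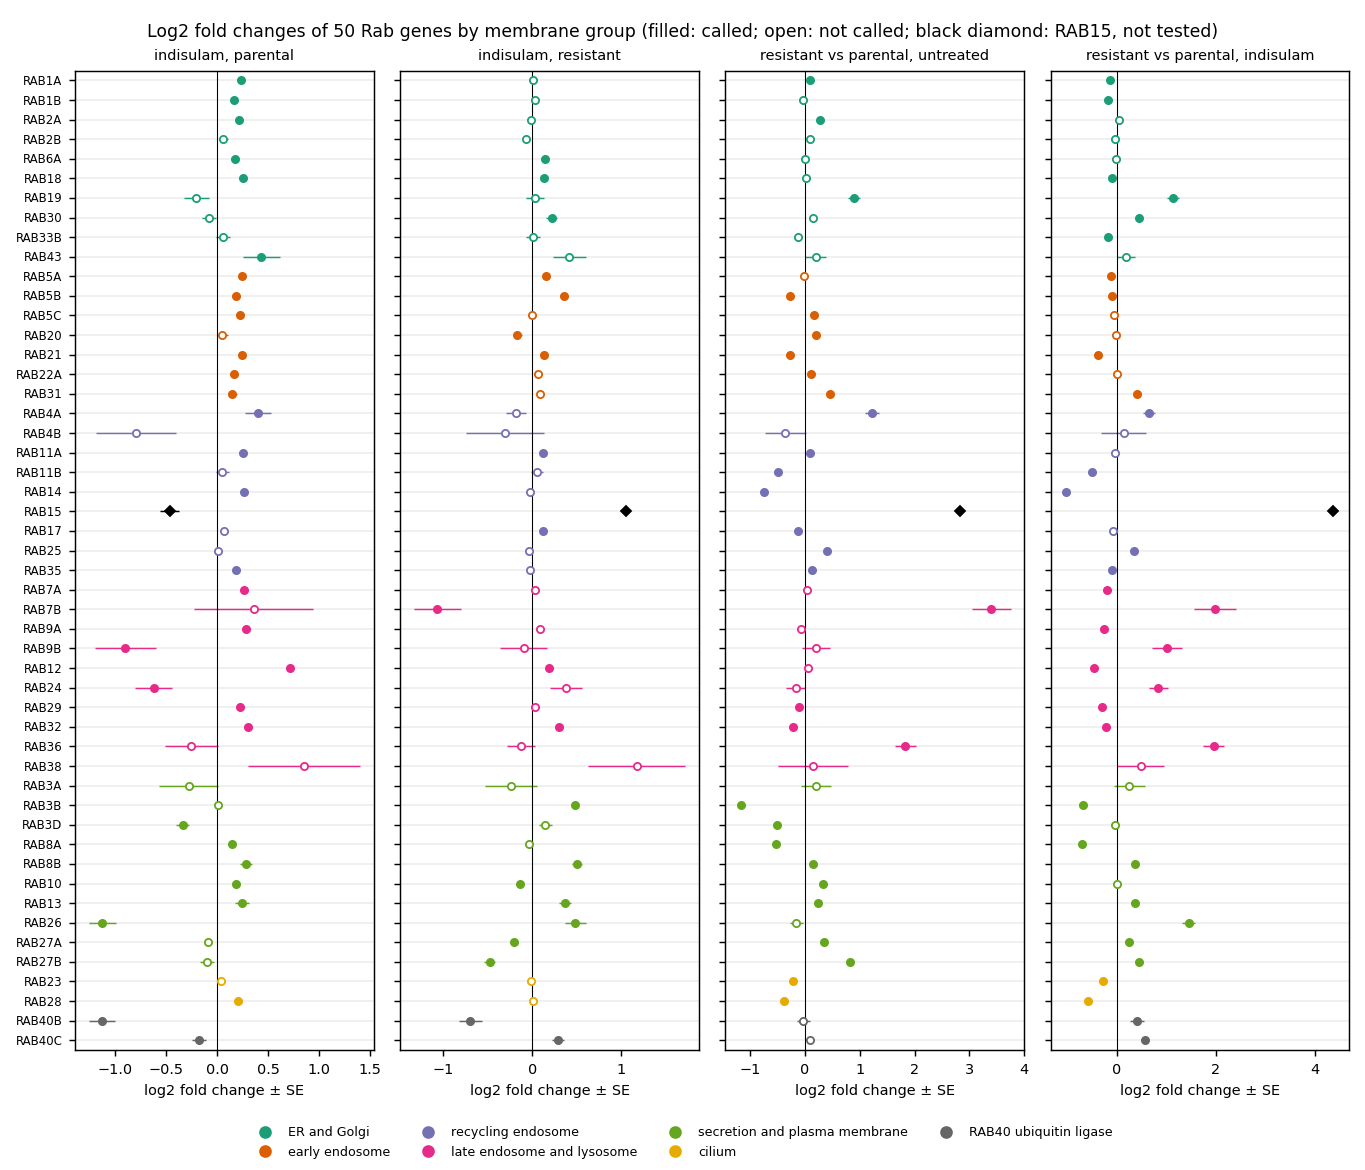
Log2 fold changes (± SE) of the 50 tested Rab genes in 4 comparisons, grouped and coloured by membrane; filled points passed the edgeR test at an adjusted p under 0.05, open points did not, and the black diamond is RAB15, which was not tested. Treated parental cells show a row of small rises with RAB26, RAB40B and RAB9B far to the left, and the scales of the 4 panels differ.

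The 2 drug responses share no library and can be set side by side. There were 14 Rab genes called in each of the 2 lines: 10 rose in both, RAB40B fell in both, RAB26 and RAB40C fell in parental and rose in resistant cells, and RAB10 rose in parental and fell in resistant cells. A further 18 were called in parental cells alone, 7 in resistant cells alone and 10 in neither. Over all genes tested, 33.6% were called in both lines, 24.6% in parental cells alone, 17.1% in resistant cells alone and 24.8% in neither. Across the 49 Rab genes other than RAB15, Pearson's r between the responses was 0.272, against 0.201 across all genes tested. With RAB15, which was chosen for its own difference, r was 0.173. These are descriptions across genes that share libraries.

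The difference itself was tested as the resistant minus the parental response. Under it 27 of 49 Rab genes were called against a background of 50.1% (22.7% higher and 27.5% lower), 8 with the higher and 19 with the lower response in resistant cells. That split depended on the scaling and on the genes fitted. Library totals alone gave 11 higher and 9 lower, while the median over all genes moved from 0.01 to 0.13 log2 units. Relative to the median of all genes, the median of the Rab genes was -0.07 under both scalings. Protein-coding genes alone gave 9 higher and 12 lower, with medians of 0.002 over the Rab genes and 0.015 over all genes. Among Rabs with a mean of 10 CPM or more, 3 of 31 were higher and 17 lower (median -0.13). Over all 8811 genes of that level, 1651 were higher and 4124 lower (median -0.11). RAB26 had the largest difference among tested members (1.61 ± 0.18, adjusted p = 1.5e-07), having fallen by 1.13 in parental and risen by 0.48 in resistant cells. RAB3D (0.49 ± 0.097, adjusted p = 2.1e-04) and RAB3B (0.48 ± 0.047, adjusted p = 4.7e-08) also responded higher in resistant cells. These 3 had the largest called differences on this side among tested Rab genes of at least 1 CPM. RAB12 was on the other side (-0.52 ± 0.054, adjusted p = 4.7e-08), with rises of 0.72 in parental and 0.19 in resistant cells, as were RAB27B (-0.38 ± 0.092, adjusted p = 0.0015) and RAB4A (-0.58 ± 0.17, adjusted p = 0.0067, and adjusted p = 0.052 by DESeq2). Of the 10 tested Rabs of the secretory group, 4 were called higher and 3 lower, beside 22.7% and 27.5% of all genes. The 3 lower ones were RAB27B, RAB10 and RAB8A.

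RAB14, RAB7A, RAB8A and RAB1B rose in parental cells and did not pass the test in resistant ones (-0.02, 0.03, -0.04 and 0.03). RAB14, which links the trans-Golgi network with endosomes, differed by -0.28 ± 0.042 (adjusted p = 7.2e-06), and RAB7A by -0.23 ± 0.038 (adjusted p = 2.0e-05). RAB10, which moves exocytic and basolateral cargo, rose by 0.19 in parental cells, fell by 0.14 in resistant cells and differed by -0.33 ± 0.041 (adjusted p = 5.6e-07). For RAB1B (-0.14) and RAB8A (-0.19) the call was lost with library totals alone (-0.02 and -0.07, adjusted p = 0.63 and 0.13), and for RAB1B also without resistant untreated replicate 1 (-0.10, adjusted p = 0.057) or resistant indisulam replicate 2 (-0.10, adjusted p = 0.089). RAB32 responded by 0.30 in both lines, with a difference of 0.00 ± 0.060 (SE). RAB8B rose in both, and its difference of 0.22 ± 0.082 (adjusted p = 0.030) was not called by DESeq2 (adjusted p = 0.14) or without parental untreated replicate 1 (0.21, adjusted p = 0.082) or 2 (0.22, adjusted p = 0.068), parental indisulam replicate 2 (0.19, adjusted p = 0.073), resistant untreated replicate 1 (0.21, adjusted p = 0.064) or resistant indisulam replicate 2 (0.15, adjusted p = 0.18).

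**Figure D4:**
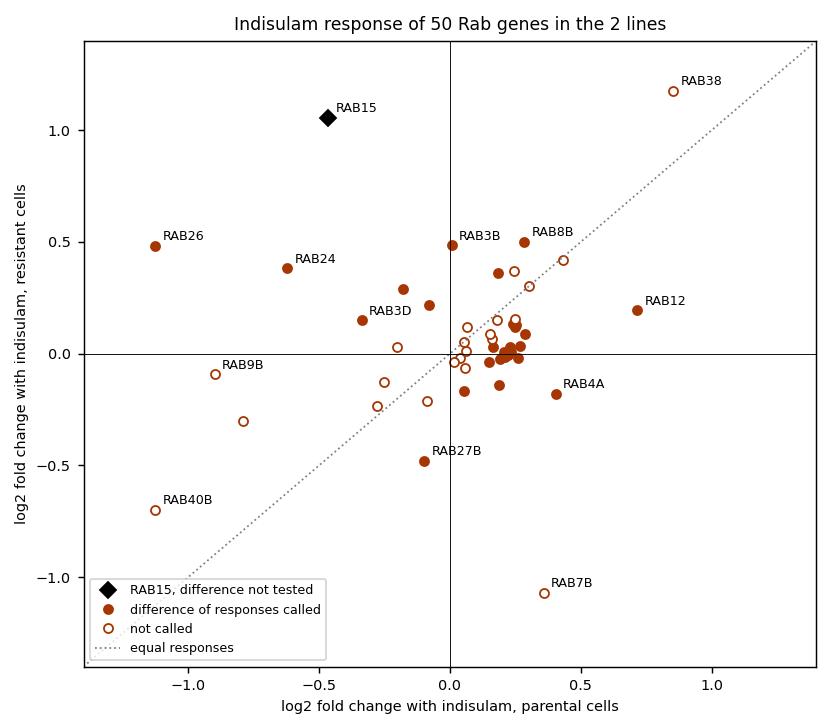
Log2 fold change with indisulam in parental cells (horizontal) and in resistant cells (vertical) for the 50 tested Rab genes; filled points have a called difference of responses, open points do not, and the dotted line marks equal responses. RAB15 and RAB26 stand in the upper left, lower with drug in parental and higher in resistant cells, and RAB40B lies in the lower left.

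Without drug, the resistant line was compared with the parental line to see what the adapted population carried. Higher levels were found for 18 and lower levels for 12 of the 49 Rab genes, 30 called against a background of 60.1% (30.3% higher and 29.9% lower). The median difference was 0.08 log2 units, against -0.02 over all genes. The summed level was 2864 and 2803 CPM in resistant libraries, below the 3051 and 3052 CPM of parental ones. RAB3B differed most downwards, at 331 and 334 CPM in parental and 151 and 144 CPM in resistant libraries (-1.17 ± 0.034, adjusted p = 4.6e-18). RAB14 came next with 178 and 181 against 107.8 and 104 CPM (-0.76 ± 0.030, adjusted p = 1.6e-16), then RAB8A, which serves exocytosis and cilium growth, with 135 and 136 against 94.6 and 93.1 CPM (-0.53 ± 0.028, adjusted p = 6.2e-14). In all 3 genes the parental libraries lay above the resistant ones, and the naming rule required libraries without overlap. Of all 16661 genes tested, 13250 showed no overlap here. RAB3D (-0.52) and RAB11B (-0.50 ± 0.066), the latter a Rab of slow recycling, were lower by similar amounts.

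RAB4A led the higher side, with 1.18 and 1.14 CPM in parental and 2.77 and 2.65 CPM in resistant libraries (1.22 ± 0.12, adjusted p = 3.9e-09). RAB19, a Golgi Rab, went from 1.76 and 1.79 to 3.47 and 3.13 CPM (0.90 ± 0.11, adjusted p = 1.5e-07). RAB27B read 5.87 and 6.38 CPM in parental and 10.8 and 10.96 CPM in resistant libraries (0.83 ± 0.062, adjusted p = 3.4e-11). In each of these genes the resistant libraries were all higher, which the naming rule required of RAB4A and RAB19. RAB27A (0.35 ± 0.040), RAB31 (0.46 ± 0.042), which links the trans-Golgi network with early endosomes, and RAB25 (0.40 ± 0.032) rose by less. RAB7B and RAB36, Rabs of late endosomes and the Golgi region, had larger fitted values (3.41 ± 0.35 and 1.83 ± 0.19) on few reads, with 5 and 6 reads for RAB7B in untreated parental and 31 and 46 in untreated resistant libraries. The secretory group held 5 higher and 3 lower of 10, the recycling group 4 higher and 3 lower of 8, and both cilium-linked genes, RAB23 (-0.23) and RAB28 (-0.39), were lower. These counts stand beside 60.1% of all genes tested and 71.6% of those with a mean of 10 CPM or more that were called.

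On drug, the lines differed in more Rab genes, 16 higher and 19 lower in resistant cells, 35 of 49 called against a background of 69.5% (34.6% higher and 34.9% lower). With library totals alone the split was 19 higher and 13 lower, and over all genes 6835 higher and 4619 lower. The median difference was -0.03 under TMM scaling and turned to 0.06 with library totals, which moved the median of all genes from 0.00 to 0.09. RAB14 was lowest relative to parental cells, with 214 and 216 CPM in parental and 102 and 107 CPM in resistant libraries (-1.04 ± 0.030, adjusted p = 3.9e-19). RAB8A (-0.72 ± 0.028) and RAB3B (-0.70 ± 0.033, adjusted p = 3.4e-14) followed, and RAB28 (-0.59) and RAB12 (-0.46 ± 0.037) were also lower. RAB12 thus differed between the lines on drug alone, since its difference of 0.06 off drug did not pass (adjusted p = 0.18), and the difference of its responses was itself called.

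RAB26 was the tested gene with the largest higher level on drug at a mean of 1 CPM or more, at 0.987 and 0.865 CPM in parental and 2.63 and 2.44 CPM in resistant libraries (1.45 ± 0.13, adjusted p = 1.2e-09). Off drug its lines differed by -0.16 ± 0.12 (adjusted p = 0.25). RAB19 stayed higher by 1.13 ± 0.12 (adjusted p = 6.8e-09), RAB4A by 0.64 ± 0.12 (adjusted p = 5.5e-05), RAB27B by 0.45 ± 0.068 and RAB25 by 0.35 ± 0.033. All 5 genes lay higher in both treated resistant libraries than in both treated parental ones, which the naming rule required of RAB26 and RAB19. Of all 16661 genes tested, 13964 showed no overlap here. Late endosome and lysosome Rabs were called in 9 of 10 genes, 4 higher (RAB7B, RAB36, RAB9B and RAB24, each under 1 CPM on average) and 5 lower (RAB7A, RAB9A, RAB12, RAB29 and RAB32, each above 10 CPM). Of all 8811 genes with a mean of 10 CPM or more, 81.8% were called here, 2604 higher and 4607 lower. RAB5B, RAB8B, RAB13, RAB21 and RAB32 were called in all 4 comparisons of 2 groups, and RAB2B, RAB3A, RAB4B and RAB38 in none of them, where 20.7% and 11.2% of all genes tested were called in all 4 and in none. For RAB8B the call between the untreated lines (0.15, edgeR adjusted p = 0.034) was not made by DESeq2 (0.16, adjusted p = 0.085). In edgeR it was also lost with library totals alone (0.12, adjusted p = 0.092) or protein-coding genes alone (0.12, adjusted p = 0.069).

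Some Rab genes share exons or sequence with other genes. Reads marked as ambiguous or of low mapping quality were left out of the counts, and how far this lowered those of Rab genes was not tested. RAB24 shares exons with MXD3 on the same strand, and MXD3 holds 89.7% of the reads of the pair. Of the 100-base windows of RAB43, 88.1% recur in the read-through gene ISY1-RAB43, and 54.8% of those of RAB13 recur in a second annotated gene. ISY1-RAB43 was assigned 0 reads, and the second gene at RAB13 was assigned 9 beside 4697 for RAB13. RAB3D and RAB8A overlap TMEM205 and HSH2D on the same strand over 3.28% and 4.20% of their exon bases. RAB19, RAB2B and RAB4A overlap SLC37A3, TOX4 and RAB4A-AS1 on the opposite strand, and the strand setting used for counting is not given in the sources used here. RAB12, RAB14, RAB15, RAB25, RAB26, RAB40B and RAB8B share no 100-base window with another gene.

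Among the 8 genes that attach Rabs to membranes and recycle them, the largest differences were those between the lines. CHM and CHML encode the escort proteins REP1 and REP2, which present new Rabs to the prenylating enzyme, and they differed in opposite directions. CHM read 51.0 and 50.9 CPM in untreated parental and 38.3 and 37.2 CPM in untreated resistant libraries (-0.43 ± 0.033, adjusted p = 6.3e-11), whereas CHML read 47.6 and 49.6 against 80.2 and 83.6 CPM (0.75 ± 0.035, adjusted p = 4.4e-15). On drug the differences were -0.64 ± 0.034 and 0.84 ± 0.036. RABGGTB, the catalytic beta subunit of the geranylgeranyl transferase, was lower in resistant cells off drug (-0.60 ± 0.033, adjusted p = 8.0e-14), while its partner RABGGTA was not called in any comparison. RABAC1, a prenylated Rab acceptor, was lower off drug (-0.47 ± 0.12, adjusted p = 0.0013) and rose on drug in resistant cells (0.56 ± 0.12, adjusted p = 4.4e-04). GDI2, which extracts GDP-bound Rabs from membranes, fell by 0.16 log2 units on drug in resistant cells and differed by -0.18 between the lines on drug (adjusted p = 5.2e-05 and 4.1e-06). RABIF, a chaperone of exocytic Rabs, was called between the lines on drug alone (-0.16), and not without parental indisulam replicate 2 (-0.07, adjusted p = 0.32) or resistant indisulam replicate 1 (-0.13, adjusted p = 0.071).

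Of 121 regulator genes listed from general knowledge, 113 were tested. In parental cells, indisulam raised 7 and lowered 12 of 33 GEFs, raised 9 and lowered 15 of 31 GAPs, and raised 13 and lowered 9 of 39 effectors, where 31.6% of all genes tested rose and 26.6% fell. The median log2 fold changes were -0.04, -0.08 and 0.04, beside 0.01 over all genes and 0.17 over the Rab genes. With library totals alone the splits were 3 and 17, 6 and 19, and 6 and 12, and the median of the effectors turned to -0.03. Over all genes that scaling gave 3900 higher and 5385 lower, with a median of -0.05. Relative to the median of all genes, the effectors stood at 0.02, the GEFs at -0.05 and the GAPs at -0.10 under both scalings. MICALL2, an effector of RAB13 and RAB8 genes, fell from 14.5 and 14.9 to 6.03 and 5.397 CPM (-1.36 ± 0.15, adjusted p = 6.0e-04), and MLPH, which ties RAB27A to myosin Va, fell from 56.6 and 56.6 to 37.5 and 36.3 CPM (-0.62 ± 0.046, adjusted p = 1.4e-08). The treated libraries were the lower ones in both. RABGEF1, a GEF of RAB5 genes, fell by 0.74 and SGSM2, a GAP, fell by 0.67, while RABGAP1 rose by 0.35 and MON1B, part of a GEF of RAB7, rose by 0.30. EEA1, the tether recruited by RAB5, rose by 0.52 ± 0.099 (adjusted p = 0.0094), and gave 0.47 (adjusted p = 0.073) without parental indisulam replicate 2.

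In resistant cells the drug raised 7 and lowered 15 GEFs, raised 5 and lowered 16 GAPs, and raised 8 and lowered 7 effectors (9 and 14, 6 and 11, and 14 and 6 with library totals alone). Of all genes tested, 24.9% rose and 25.8% fell, and with library totals alone 5095 of 16661 rose and 3438 fell. MLPH fell here too, from 81.9 and 91.6 to 55.7 and 52.9 CPM (-0.68 ± 0.045, adjusted p = 3.0e-09). DENND2B, a GEF of RAB13, fell by 0.46 and TBC1D22A by 0.72, whereas DENND5B rose by 0.31. EXPH5, another RAB27 effector, rose by 0.33 ± 0.081 (adjusted p = 0.014), with 0.26 (adjusted p = 0.058) without resistant untreated replicate 1. TBC1D8B rose by 0.22 (adjusted p = 0.018), with 0.17 (adjusted p = 0.14) without resistant untreated replicate 2, and the call was also lost without either resistant indisulam library (0.21 and 0.23, adjusted p = 0.074 and 0.071). MICALL2 gave -0.08 (adjusted p = 0.68), with 14.6 and 19.3 CPM in the untreated libraries, and -0.27 (adjusted p = 6.8e-04) without resistant untreated replicate 1.

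**Figure D5:**
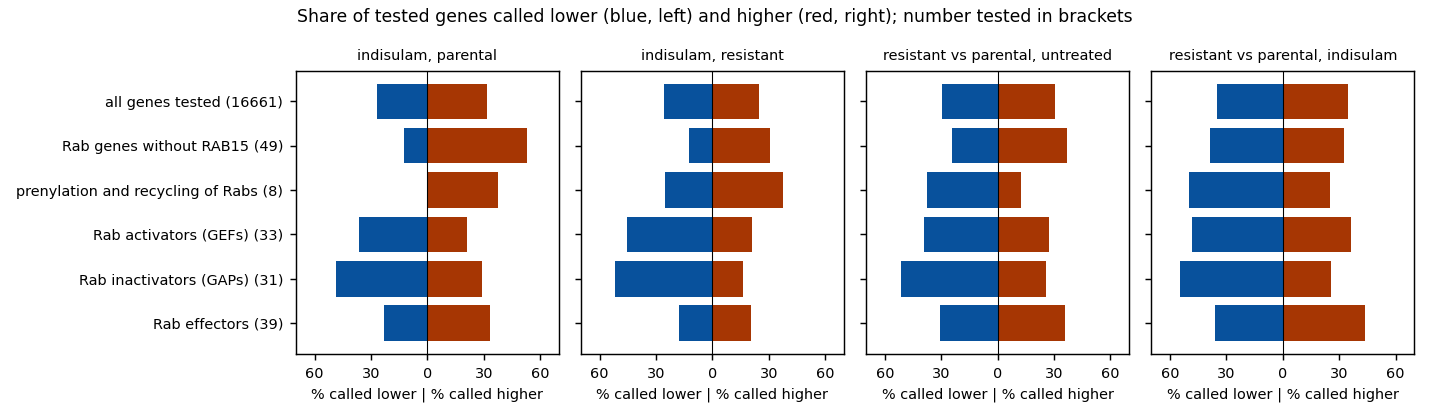
Share of tested genes called lower (blue, left) and higher (red, right) in 4 comparisons for all 16661 genes, the 49 Rab genes without RAB15, and 4 lists of Rab regulators, with the number tested in brackets. With indisulam in parental cells the Rab genes lean to higher levels (26 higher, 6 lower) and the GAPs to lower ones (9 higher, 15 lower).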

How the data were processed

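The deposited tables hold read counts per Ensembl gene, 1 table a library, made by the authors from stranded polyA libraries with HISAT2 2.2.1 (GRCh38), Picard duplicate marking and HTSeq, as the submitters' processing notes list. Reads marked as duplicates, ambiguous or of low mapping quality stand in 9 separate lines and were left out. The annotation release and strand setting are not given in the sources used here, and 60419 of 60675 identifiers matched GENCODE release 44.

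Counts were analysed with edgeR 4.0.16 (R 4.3.3): filterByExpr, TMM scaling, robust quasi-likelihood tests in 1 fit of the 4 group means (4 residual degrees of freedom), with Benjamini-Hochberg adjustment over all 16661 genes and calls under 0.05. Groups follow the sample titles. DESeq2 1.42.0 was an alternative, the scripts were tested on simulated data, and figures were drawn in Python 3.11.15. Errors are SE unless stated. Overlap of libraries, transcript sharing in windows of 100 bases and promoter motifs were described without a test. The members, the lists and the alternatives were chosen with earlier results of these data known. Genes were named by rule: in each comparison the 3 largest called rises and falls among Rabs of at least 1 CPM without overlap, the 3 highest per kb, the lipid-anchor list, REP15, the largest called regulators, and RBM39. Other Rab genes named were chosen after their values were seen. A gene of the lipid-anchor list is not reported here.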

Additional observations from a re-analysis of the deposited data

Results flagged for a closer look

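The indisulam response differed between the lines, by the edgeR test of the difference of responses, for 23 of 38 named genes other than RAB15. These were 12 of 17 Rab genes and 11 others, 9 with a higher and 14 with a lower response in resistant cells. The 17 are the Rab genes named by rule, without RAB15, and RAB10, which was chosen after its values were seen. Over all genes tested, 50.1% were called, and part of the named genes was chosen for the size of a called difference, so the share among them is no result. The values are log2 units, resistant minus parental. Among Rab genes they were 1.61 for RAB26, 0.49 for RAB3D, 0.48 for RAB3B and 0.22 for RAB8B on the higher side. On the lower side they were -0.58 for RAB4A, -0.52 for RAB12, -0.38 for RAB27B, -0.33 for RAB10, -0.28 for RAB14, -0.23 for RAB7A, -0.19 for RAB8A and -0.14 for RAB1B.

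Among the 11 other genes, which are Rab regulators and the drug target RBM39, MICALL2 stood at 1.29, RABAC1 at 0.73, SGSM2 at 0.63, DENND5B at 0.61 and RABGGTB at 0.13. RABGAP1 stood at -0.30, GDI2 at -0.23, CHM at -0.20, RBM39 at -0.18, TBC1D22A at -0.17 and MON1B at -0.13. With library totals alone the calls were lost for CHM (-0.09, adjusted p = 0.13), RBM39 (-0.06, adjusted p = 0.20), TBC1D22A (-0.06, adjusted p = 0.50) and MON1B (-0.02, adjusted p = 0.74). DESeq2 did not call TBC1D22A (-0.18, adjusted p = 0.078) or RABGGTB (0.11, adjusted p = 0.11). The call for TBC1D22A was also lost without parental indisulam replicate 1 (-0.08, adjusted p = 0.35), parental untreated replicate 2 (-0.16), resistant untreated replicate 1 (-0.13) or either resistant indisulam library (-0.14 and -0.17). For MON1B it was lost without either parental indisulam library, either resistant indisulam library, parental untreated replicate 2 or resistant untreated replicate 2 (-0.11 to -0.12), and for RABGGTB without parental indisulam replicate 1, either parental untreated library or resistant indisulam replicate 2 (0.12 to 0.13). The calls for RAB1B and RAB8A were also lost with library totals alone, and those for RAB4A and RAB8B by DESeq2. Line and length of exposure cannot be told apart in these differences, and their causes were not tested.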

How the results depend on the processing

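Counts of called Rab genes stayed within 1.5 times the reported ones under other scalings, DESeq2, other filters, a threshold of 0.01, protein-coding genes alone, thinning to the smallest total and fits of the compared groups alone. The exception was the test against 0.5 log2 units, which left 3 Rab genes in parental and 0 in resistant cells with drug, 7 and 8 between the lines off and on drug, and 1 for the difference of responses. Of all 16661 genes tested it left 1042, 879, 2582, 3509 and 908 in the same order. By that edgeR test 2 Rab genes had an unadjusted p under 0.05 in resistant cells. DESeq2, testing against no change, called 17 there and 6762 of all genes tested. Leaving out each library in turn gave 26 to 32, 17 to 24, 25 to 31, 31 to 36 and 20 to 26 calls in the same order.

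Of the 190 values of the named genes reported here, none that passed the test in either fit changed its sign under these alternatives. Library totals alone brought 15 of them past the threshold and took 11 below it. The replicate numbers share only a label: deviations of same-numbered libraries correlated between -0.37 and 0.32 across 9121 genes. With the replicate block, 32, 21, 30, 34 and 26 Rab genes were called. With 2 libraries a group, small differences and genes under 1 CPM are the least certain.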
